A study of Mus musculus with 4 samples.

Results

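Broad Ring1B promoters are promoters with a high mean Ring1B signal over the whole tiled sequence in wild-type mouse embryonic fibroblasts, rather than over a short stretch of it alone. They were chosen on the wild-type arrays alone. A promoter entered if it had 5 or more probes and if the mean log2 ratio of Ring1B immunoprecipitate over input, taken over all its probes after the array median was subtracted, was at least 1. The rule found 763 promoters of 17410 measured (4.38%). Chromatin immunoprecipitation on promoter arrays was carried out in primary fibroblasts of C57BL/6 embryos of day 12.5, used at passage 2. The cells were wild type or homozygous for the L307R allele of Phc2 (Phc2 L307R/L307R), and nothing in the labels separates the groups apart from that genotype. The 4 arrays came in 2 designs with different probes, with 1 array of each genotype per design, so each promoter was measured once per genotype. The design gives no error between cultures and no p-value, and every error below is the SD over the probes of a promoter.

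Ring1B belongs to Polycomb repressive complex 1 (PRC1), where it acts as the ubiquitin ligase that marks histone H2A at silent genes. Phc2 is one of the Polyhomeotic subunits of PRC1. Its SAM domain joins head to tail with other SAM domains into polymers, and the study's title names this polymerisation together with the clustering of PRC1. In mammalian cells the genes most widely covered by PRC1 are classically those of developmental transcription factors, above all the Hox clusters, and most promoters that bind PRC1 hold CpG islands.

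The promoter sequences of 6 members that are named in the results below are shown as examples. Nkx2-3 and Otp stood among the highest means and remained high in Phc2 L307R, Wif1 and Gad1 were among the largest decreases, and Hoxa5 and Col3a1 among the largest increases. Each window runs from 250 bases before to 50 bases after the annotated start, 5′ to 3′, and the capitals mark CpG dinucleotides. The sequences and positions are those of RefSeq in the GRCm38.p6 build: Nkx2-3 at chr19:43612075-43612374 (plus strand), Otp at chr13:94875386-94875685 (plus), Wif1 at chr10:121033754-121034053 (plus), Gad1 at chr2:70561879-70562178 (plus), Hoxa5 at chr6:52204538-52204837 (minus) and Col3a1 at chr1:45311288-45311587 (plus).
Nkx2-3: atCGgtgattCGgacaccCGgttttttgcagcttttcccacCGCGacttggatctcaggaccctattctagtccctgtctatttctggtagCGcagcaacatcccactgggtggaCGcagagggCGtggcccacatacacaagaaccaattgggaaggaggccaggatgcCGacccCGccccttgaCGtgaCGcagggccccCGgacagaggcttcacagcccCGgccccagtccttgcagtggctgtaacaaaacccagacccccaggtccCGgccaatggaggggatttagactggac
Otp: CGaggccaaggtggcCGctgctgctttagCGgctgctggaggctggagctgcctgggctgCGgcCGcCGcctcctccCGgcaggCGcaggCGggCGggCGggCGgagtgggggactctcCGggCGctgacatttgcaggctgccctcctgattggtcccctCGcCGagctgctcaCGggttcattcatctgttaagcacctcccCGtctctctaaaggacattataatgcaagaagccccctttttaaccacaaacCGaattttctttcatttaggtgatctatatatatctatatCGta
Wif1: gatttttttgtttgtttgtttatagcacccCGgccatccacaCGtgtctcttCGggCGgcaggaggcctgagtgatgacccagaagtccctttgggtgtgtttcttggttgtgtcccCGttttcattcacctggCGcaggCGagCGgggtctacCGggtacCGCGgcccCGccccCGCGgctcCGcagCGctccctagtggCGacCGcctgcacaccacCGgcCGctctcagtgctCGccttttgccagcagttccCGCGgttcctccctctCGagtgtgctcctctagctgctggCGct
Gad1: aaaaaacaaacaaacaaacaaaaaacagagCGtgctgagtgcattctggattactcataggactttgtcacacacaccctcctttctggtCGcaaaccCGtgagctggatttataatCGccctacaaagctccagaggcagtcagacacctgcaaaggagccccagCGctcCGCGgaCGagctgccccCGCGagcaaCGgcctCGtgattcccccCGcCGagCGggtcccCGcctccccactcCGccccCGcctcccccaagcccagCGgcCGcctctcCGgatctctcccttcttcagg
Hoxa5: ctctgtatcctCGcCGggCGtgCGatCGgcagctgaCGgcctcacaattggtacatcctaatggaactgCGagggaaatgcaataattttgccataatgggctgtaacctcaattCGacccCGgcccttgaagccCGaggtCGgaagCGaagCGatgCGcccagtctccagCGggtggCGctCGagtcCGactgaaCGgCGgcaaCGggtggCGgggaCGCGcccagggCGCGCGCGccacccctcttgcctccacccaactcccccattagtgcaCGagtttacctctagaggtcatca
Col3a1: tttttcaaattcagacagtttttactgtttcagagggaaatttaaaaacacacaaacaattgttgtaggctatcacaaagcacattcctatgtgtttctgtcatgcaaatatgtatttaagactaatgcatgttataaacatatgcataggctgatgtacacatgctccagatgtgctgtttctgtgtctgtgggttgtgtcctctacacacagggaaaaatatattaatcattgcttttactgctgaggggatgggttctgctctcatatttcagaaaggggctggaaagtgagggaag
Hoxa5 held 29 CpG, Wif1 25, Gad1 21, Otp 20 and Nkx2-3 15. The median of all 32851 RefSeq windows of this length is 7, and that of the matched measured promoters is 16, above Nkx2-3. The window of Col3a1 held 0, as do 5.43% of all windows. Col3a1 is a single member, and its share of input probes well above background was below the median of members (values below). No general statement is drawn from it. By symbol, 72.1% of broad, 78.7% of narrow (defined below) and 77.2% of all measured promoters matched the RefSeq promoter table. Over the matched ones the median was 20.5 CpG at broad, 21 at narrow and 16 at all promoters. The medians of broad and narrow promoters were thus alike, and unmatched promoters were not compared.

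Immunoprecipitate signal was well above background at 97.9% to 99.7% of the probes of each array. For the input channel this share was 85.7% and 86.7% in wild type on designs 1 and 2, and 75.0% and 76.3% in Phc2 L307R. Over the broad promoters the median share of such input probes was 83.7% in wild type and 70.4% in Phc2 L307R. The arrays of each genotype were scanned together but the genotypes on different days, and scan day and genotype cannot be told apart. The deposited value tables hold a different version of the wild-type data, which correlated with the scanner ratios at 0.854 and 0.890 on designs 1 and 2, whereas the Phc2 L307R tables correlated at 0.999 on both. What the wild-type tables were made from is not known, and values below come from the scanner files. Of 71 broad promoters followed by name, 16 changed sign in the value tables, and not all of these are marked below.

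The cell label was set against fibroblast genes as far as a map of Ring1B allows, since binding does not measure expression. Of 13 promoters of fibroblast markers, 7 were broad in wild type, among them Pdgfra, a growth factor receptor of mesenchymal cells, at 1.69 ± 0.86 (SD, 44 probes), and Vim, the mesenchymal intermediate filament vimentin, at 1.19 ± 1.18 (SD, 42 probes). Fibroblast markers below the cut-off included Col1a1 at 0.89, Pdgfrb at 0.73 and Thy1 at -0.03. None of 5 endothelial, 4 blood, 6 epithelial, 4 neural and 6 muscle marker promoters was broad. The longer lists below do hold broad promoters of endothelial (2 of 17), blood cell (2 of 29) and epithelial genes (3 of 27). These counts therefore do not identify the cells.

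The cut-off lay in a dense part of the distribution. There were 207 promoters with a wild-type mean of 0.9 to 1 and 152 with a mean of 1 to 1.1. Just inside it stood Mme, the endopeptidase neprilysin, Ddit3, a stress-response transcription factor, and 4933429E10Rik (now Slc47a2), all at a mean of 1.00. Just outside stood Onecut3, Kitl and Gnai1, also at 1.00 when rounded. Promoters near this value differ from their neighbours by far less than the spread over their probes.

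The length tiled on the array decided in part what broad could mean. Length was counted from the start of the first probe to the end of the last, gaps included. By this measure 517 of the 763 members, called long-tiled, reached 6000 bp or more. The other 246 were shorter, with a median of 12 probes and 2316 bp. The long-tiled members had a median of 39 probes but as few as 7. Hoxa3, for example, had 8 probes over 12638 bp, so not all of them were tiled without gaps. Names that pair 2 genes, for a shared promoter, were carried by 84 of the 246 shorter members (34.1%) and by 8 of the long-tiled ones, in all 12.1% of members against 4.96% of all promoters. In the shorter ones a high mean shows only that the tiled core was covered.

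In wild type the median broad promoter had 64.7% of its probes at or above 1, where a narrow promoter had 18.2%. Narrow promoters are the 7526 with a window of 3 neighbouring probes at or above 1 but a mean over all probes below 1. The share among the members ran from 16.7% upwards, and 86.8% of them (662 of 763) had at least 50% of their probes at or above 1. At 45 broad promoters every probe was at or above 1. The longest run of successive probes at or above 1 had a median of 1937 bp over all members and 2513 bp over the 517 long-tiled ones, and 446.5 bp over long-tiled narrow promoters. Of the 763, 367 had a run of at least 2000 bp and 80 a run of at least 5000 bp. All 80 were long-tiled, and a run cannot exceed the length tiled. These widths describe the wild-type values that chose the members.

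**Figure D1:**
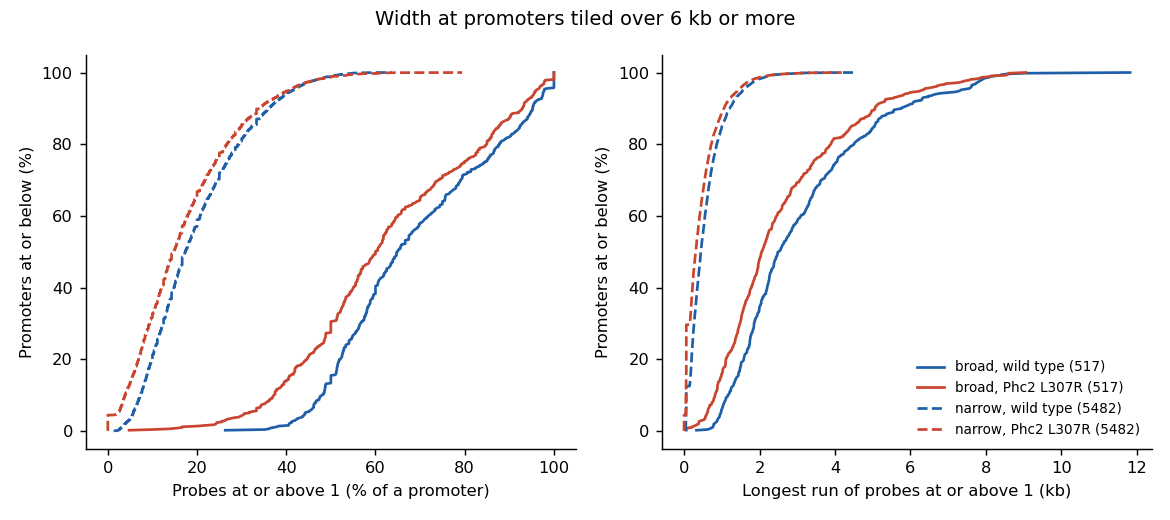
Cumulative share of promoters (vertical axis, percent) by the percent of probes at or above a log2 ratio of 1 (left) and by the longest run of such probes in kb (right). Promoters are those whose probes span 6 kb or more, gaps included. Solid lines are the 517 broad promoters, dashed lines the 5482 narrow ones, blue is wild type and red Phc2 L307R; the median of broad promoters lies at 65.0% of probes in wild type and at 60.0% in Phc2 L307R.

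The longest covered stretch was that of Pax6, the paired homeobox gene of eye and brain, with 11823 bp in wild type and 8599 bp in Phc2 L307R. Its log2 mean was 2.94 ± 0.96 in wild type and 2.55 ± 0.91 in Phc2 L307R (SD, 63 probes). Sp8, a zinc finger factor of limb and brain, had a run of 9056 bp in both genotypes. Each of its probes was at or above 1, with means of 3.84 ± 0.86 and 3.77 ± 0.86 (SD, 53 probes). The promoter between Evx2 and Hoxd13 was covered over 8573 bp in both genotypes, whereas the run at Hoxd10 was 8407 bp in wild type and 7199 bp in Phc2 L307R. Zic5-Zic2, the shared promoter of a pair of neural zinc finger genes, was covered over 8376 bp in wild type and over 8587 bp in Phc2 L307R. The run thus stayed the same at Sp8 and Evx2-Hoxd13, shortened at Pax6 and Hoxd10 and lengthened slightly at Zic5-Zic2.

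At the other end were members that reached a mean of 1 with no high window. Hist1h3b, a histone H3 gene, had a highest window of 1.06 and a mean of 1.03 ± 0.22 over 5 probes, with 1.19 ± 0.42 in Phc2 L307R. Samd4b-Gmfg had a highest window of 1.11 and a mean of 1.07 ± 0.20 over 5 probes, which was 0.63 ± 0.17 in Phc2 L307R. Hoxa3 had a highest window of 1.12 over 8 probes, while Abhd14a-Abhd14b had a window of 1.23 over 6 probes. All of these had few probes on the array. The reverse case was a high window in a promoter that was not broad. Gsg1 had a window of 3.71 but a mean of 0.46 ± 1.18 (SD, 50 probes), and Pax8, a paired gene of thyroid and kidney, had a window of 3.47 with a mean of 0.85 ± 1.12 (SD, 44 probes). Zfp593, A930008G19Rik (now Fam53b) and Stk11ip had windows of 3.65, 3.62 and 3.52 with means of 0.57, 0.30 and 0.73. The probes of Gsg1, A930008G19Rik and Stk11ip spanned 13012, 34306 and 12237 bp, gaps included, so their means may take in more than the promoter around the peak. Pax8 and Zfp593 spanned 7821 and 7645 bp. At these, a peak as high as that of many members lay in a promoter that was mostly uncovered.

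The highest means in wild type belonged largely to homeobox and other developmental regulators. D130079A08Rik, which is tiled next to the sensory neuron gene Pou4f1, had the highest mean, 4.25 ± 1.19 in wild type and 3.78 ± 1.19 in Phc2 L307R (SD, 32 probes). Evx2, the homeobox gene at the end of the HoxD cluster, had 4.16 ± 0.66 and 4.61 ± 0.67 (SD, 14 probes). Nkx2-3, a homeobox gene needed for spleen and gut formation, had 4.12 ± 1.10 and 4.04 ± 1.20 (SD, 45 probes). At Nkx2-3, 97.8% of the probes were at or above 1 in both genotypes, and its run of 7564 bp was the same in both.

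Others of the 10 highest were Shox2-Rsrc1, whose Shox2 shapes limb and heart, at 4.10 in wild type with a difference of -0.10, and Zic2, a neural zinc finger gene, at 3.94 in wild type and 3.53 in Phc2 L307R. Otp, a hypothalamic homeobox gene, had 3.93 ± 0.77 in wild type and 3.55 ± 1.01 in Phc2 L307R (SD, 46 probes). The forebrain gene Otx2 had 3.92 and 3.72, Sp8 the values given above, and Pax3, of neural crest and muscle precursors, 3.73 and 3.26. Of the 10, Evx2 alone was higher in Phc2 L307R, and in the value tables it was lower, by 0.75. All 10 remained at means above 3 in Phc2 L307R.

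The 763 members were set against 22 gene lists. The first 7 cover developmental transcription factors, signalling and nuclear receptors, and together they held 246 of the members (32.2%). Of the 456 measured promoters of these lists 53.9% were broad, against 3.05% of the 16954 in none of them. A further 43 members lay in another list and 474 in none. The share in a developmental list was 14.7% of the 450 members with a wild-type mean of 1 to 1.5, 38.2% of the 144 from 1.5 to 2, 72.1% of the 122 from 2 to 3 and 78.7% of the 47 at 3 or more. The share in these lists thus increased with the wild-type mean. The lists are not complete, and Sp8, for example, is in none of them. They were also drawn up with earlier results of these data known, so these shares are a description.

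Hox genes, which set position along the body axis, had 34 of 36 measured promoters broad in wild type and 32 in Phc2 L307R, the highest share of any list, 94.4%. Hoxd13, of digit and genital development, averaged 3.26 ± 0.48 in wild type and 2.97 ± 0.73 in Phc2 L307R (SD, 19 probes). Among Nkx, LIM and sine oculis homeobox genes, 25 of 30 were broad. Isl1, a LIM homeobox gene of motor neurons and heart, had 3.67 ± 1.14 and 3.52 ± 1.36 (SD, 41 probes). Of the Paired, Dlx, Msx, Irx and other homeobox genes, 77 of 97 were broad in wild type and 67 in Phc2 L307R.

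Fox, T-box, Sox and Gata genes, which specify organs of all germ layers, had 40 of 68 broad. Foxd3, of neural crest, averaged 3.61 ± 1.27 in wild type and 3.19 ± 1.21 in Phc2 L307R (SD, 43 probes), and the heart gene Tbx20 had 3.59 ± 0.86 and 3.06 ± 0.77 (SD, 39 probes). Of bHLH and zinc finger developmental genes, 46 of 85 were broad, including Sim1, a hypothalamic bHLH gene, at 3.61 and 3.15. The 5 lists of homeobox, Fox, T-box, Sox, Gata, bHLH and zinc finger genes thus had more than 50% of their promoters broad.

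Signalling ligand and antagonist genes were broad less often, with 20 of the 92 in wild type and only 8 when Phc2 L307R was measured, and most of these lay near the cut-off. Fgf9, a growth factor of lung and gonad, had the highest mean, 1.94 in both genotypes, followed by the axon guidance gene Ntn1 at 1.49 and 1.41. Dkk1, a secreted Wnt antagonist, had 1.04 in wild type and 0.38 in Phc2 L307R. The median of the 20 wild-type members was 1.13 in wild type and 0.94 in Phc2 L307R, so a small shift moved many of them past the cut-off. Nuclear receptor and retinoid genes had 5 of 49 broad in each genotype, with Nr2e1, of neural stem cells, at 3.04 and 2.42 and Nr2f1 at 2.40 and 2.43.

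Genes of the Polycomb system had 5 of 34 broad promoters. Bmi1, a PRC1 subunit itself, averaged 2.88 ± 0.94 in wild type and 3.25 ± 0.91 in Phc2 L307R (SD, 12 probes), although the value tables put Phc2 L307R lower by 1.04. Cbx2, a chromodomain subunit of PRC1, had 0.63 in Phc2 L307R, with a difference from wild type of -0.48. Of 8 Cdk inhibitor promoters, 2 were broad: Cdkn2c at 1.77 and 2.02, and Cdkn2a, the classical PRC1 target that restrains fibroblast growth, at 1.02 ± 0.85 and 1.34 ± 0.86 (SD, 40 probes). Both were lower in the value tables, Cdkn2a by 0.14.

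Of 82 neuronal channel, receptor and synapse promoters 5 were broad, and 3 of these belong to GABA neurons. Gad1 and Gad2 encode the enzymes that make GABA, and Slc32a1 its vesicular transporter. Gad1 averaged 2.18 ± 1.04 in wild type and 1.13 ± 0.86 in Phc2 L307R (SD, 23 probes). Gad2 had 1.98 ± 1.16 and 1.19 ± 1.05 (SD, 38 probes), and Slc32a1 1.77 and 0.86. All 3 were lower in Phc2 L307R by 0.79 to 1.05. That these 3 belong together was noticed after their values were seen. The broad glutamate transporter gene Slc17a6 went from 1.32 to 1.62, the median difference of the whole list was 0.02, and 37 of its 82 promoters were below 0. The share of the list that was broad, 6.10%, was near that of all promoters.

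Other lists had shares from 0% to 23.1%, the latter for fibroblast and matrix genes with 9 of 39, which was above the share of signalling genes (21.7%) and of nuclear receptor genes (10.2%). Ribosomal protein genes had 2 of 92 broad, cell cycle genes 3 of 57, among them the D cyclin genes Ccnd2 (2.07 in wild type, 1.73 in Phc2 L307R) and Ccnd1 (1.61 and 1.57), housekeeping genes 4 of 37 and clustered histone genes 7 of 52. Epithelial genes had 3 of 27, led by Rbm35a (now Esrp1), an epithelial splicing factor, at 2.87 and 2.02. Endothelial genes had 2 of 17 and blood cell genes 2 of 29. None of 32 muscle, 30 liver, 33 germline and 851 olfactory receptor promoters was broad.

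**Figure D2:**
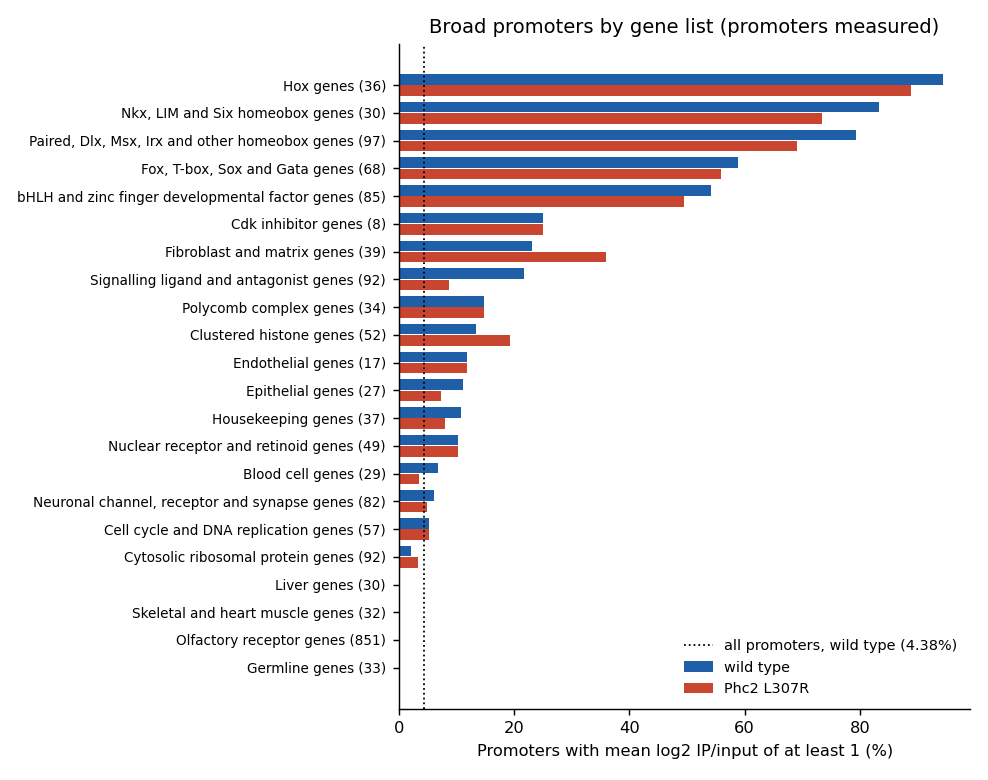
Percent of the measured promoters of each gene list (number in parentheses) whose mean log2 ratio over all probes is at least 1, in wild type (blue) and Phc2 L307R (red); the dotted line is the share over all promoters in wild type, 4.38%. Homeobox, Fox, T-box, Sox, Gata, bHLH and zinc finger lists stand far above the line. Fibroblast and histone lists have more broad promoters in Phc2 L307R than in wild type, which was not so after normexp background correction.

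With the scanner ratios, the broad promoters mostly stayed well above the array median in Phc2 L307R cells. Values are relative to that median, so a shift common to a whole array would not show. The value tables gave a larger decrease over the same members, with a median difference of -0.53, 241 lower by 2-fold and 0 higher. In the scanner ratios the median of means over the broad promoters was 1.34 in wild type and 1.24 in Phc2 L307R, against 0.07 and 0.05 over all promoters. Of the 763, 552 (72.3%) were at or above 1 in Phc2 L307R too, where 644 of all 17410 promoters were (3.7%). The other 211 were broad in wild type only, with medians of 1.12 and 0.82, and 92 were broad in Phc2 L307R only, with medians of 0.92 and 1.09. Both sets lay close to the cut-off. Across the 763 members the means of the genotypes correlated at r = 0.886; the points share an array and its normalisation within each design.

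The difference between genotypes in the scanner ratios was small at most members and leaned to lower values in Phc2 L307R. The median difference, Phc2 L307R minus wild type, was -0.20 over broad promoters, -0.08 over narrow ones and -0.05 over all promoters. Of the 763, 566 were below 0, where 61.1% of all promoters were. No promoter was higher by 2-fold (0%) and 8 were lower by 2-fold (0.046%); all 8 are members. At 1.5-fold, 100 members were lower (all promoters: 0.781%) and 4 higher (0.224%). After loess within arrays the same counts were 54 lower and 11 higher of 657 broad promoters. Choosing on high wild-type values by itself favours a lower second value, so this lean is a description. Promoters chosen by the same rule on the Phc2 L307R arrays had a median difference of -0.039, and those chosen on the mean of both genotypes -0.11.

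**Figure D3:**
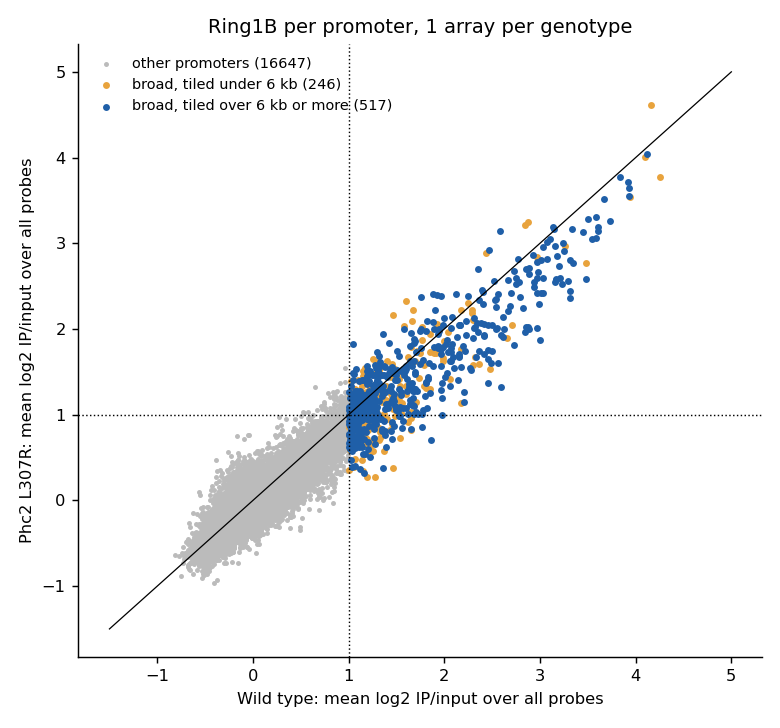
Mean log2 ratio of Ring1B immunoprecipitate over input over all probes of a promoter in wild type (horizontal) and Phc2 L307R (vertical), 1 array per genotype. Blue and orange points are the 517 long-tiled and 246 shorter broad promoters, grey the other 16647, the diagonal marks equal values and the dotted lines a mean of 1; most points above a wild-type mean of 2 lie below the diagonal.

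The difference was larger at the members with more Ring1B. Its median was -0.13 at wild-type means of 1 to 1.5, -0.24 from 1.5 to 2, -0.40 from 2 to 3 and -0.38 at 3 or more. In the upper classes 107 of 122 and 44 of 47 members were below 0. With the classes formed on the Phc2 L307R means, the medians were 0.01, -0.10, -0.20 and -0.19, and 20 of the 26 promoters at 3 or more were below 0. With the classes formed on the mean of both genotypes they were -0.04, -0.18, -0.30 and -0.28. The lower values at the most covered promoters were thus seen whichever genotype chose them, whereas near the cut-off the sign followed the genotype that chose.

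At these members coverage was also narrower in Phc2 L307R, which the choice on wild-type values favours. The median share of probes at or above 1 was 58.8%, against 64.7% in wild type, and 476 members had a larger share in wild type and 160 in Phc2 L307R. The median longest run was 1576 bp, against 1937 bp. The run was shorter in Phc2 L307R at 445 members, longer at 142 and equal at 176. Without that choice the lean was weaker: over all promoters the run was shorter at 6276 and longer at 4842, and among the 644 promoters chosen on Phc2 L307R the share of probes was larger in wild type at 297 and in Phc2 L307R at 222. Runs of at least 5000 bp numbered 80 in wild type and 55 in Phc2 L307R. Of these 41 were shared, 39 were seen in wild type only and 14 in Phc2 L307R only, and no promoter outside the 763 had one in either genotype. A run breaks at a single probe below 1, so its length also moves with probe noise. The shape of the profile was largely kept: the correlation between genotypes over the probes of a promoter had a median of 0.83 at broad and 0.76 at narrow promoters.

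Of the 10 largest decreases, 4 were at genes of the developmental lists, which held 246 of all 763 members. Tcf21, a bHLH gene of visceral mesoderm tiled over chr10:22507193-22514786 in the build of the files, which the sources used here do not name, had 2.99 ± 1.14 in wild type and 1.87 ± 1.15 in Phc2 L307R (SD, 39 probes), a difference of -1.12, and its run was 6169 bp and 1715 bp. It kept a peak in Phc2 L307R, with 3.65 at the window that was highest in wild type. After loess its difference was -0.94.

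Wif1, which encodes a secreted inhibitor of Wnt proteins and was tiled over chr10:120431658-120439771, lost most of its covered stretch. Its mean was 1.86 ± 0.68 in wild type and 0.71 ± 0.72 in Phc2 L307R (SD, 38 probes), a difference of -1.15, and after normexp background correction it was -0.72. In wild type 92.1% of its probes were at or above 1 over a run of 7001 bp, and in Phc2 L307R 34.2% over 884 bp. Input was well above background at 89.5% and 84.2% of these probes. Gsh2 (now Gsx2), a forebrain homeobox gene, had 2.46 ± 1.08 and 1.37 ± 0.94 (SD, 41 probes), and its run was 5637 bp and 1021 bp. Dmbx1, a midbrain homeobox gene, had 2.21 ± 2.04 and 1.15 ± 1.43 (SD, 42 probes), and Gad1 the values given above.

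Others of the 10 largest decreases were Gamt-Dazap1, the shared promoter of a creatine synthesis and an RNA-binding gene, from 1.47 to 0.38, the ubiquitin-like gene Ubl5 from 1.28 to 0.27, the fatty acid transporter gene Slc27a2 from 1.36 to 0.37 and Ralgps2, a Ral exchange factor gene, from 1.97 to 0.99. Gamt-Dazap1 and Ubl5 had only 11 and 8 probes. In the value tables they were lower by less than 2-fold (-0.58 and -0.52), and after normexp their differences were -0.48 and -0.53.

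Of the 10 largest increases, 7 were at genes of the developmental lists, and 4 of the 10 lay in the HoxA cluster. Hoxa4, tiled over chr6:52119281-52130240, averaged 1.05 ± 0.41 in wild type and 1.83 ± 0.49 in Phc2 L307R (SD, 51 probes), and 51.0% and 96.1% of its probes were at or above 1. Hoxa5 had 1.60 ± 0.55 and 2.33 ± 0.78 (SD, 27 probes). Hoxa2 had 1.47 ± 0.64 and 2.17 ± 0.71 (SD, 25 probes), and the neighbouring shared promoter Hoxa2-5730596B20Rik 1.76 and 2.37. In the value tables Hoxa4 and Hoxa2 were lower, by 0.33 and 1.06, and Hoxa5 was 0.03 higher, so the direction rests on which wild-type values are used.

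The Hox clusters differed in this. Of 11 broad HoxA promoters 10 were higher in Phc2 L307R, with a median difference of 0.43. All 6 broad HoxB promoters were lower (median -0.33), as were 6 of 8 HoxC promoters (median -0.17) and 8 of 9 HoxD promoters (median -0.45). In the value tables the medians over all measured promoters of each cluster were -0.61 for HoxA, -1.51 for HoxB, -1.04 for HoxC and -1.39 for HoxD, and after normexp HoxC was at 0.04. HoxA had the highest median of the 4 clusters in every processing of the values tried, while its sign turned in the value tables. The differences between clusters have no replicate check.

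Outside HoxA, Foxb1, a forkhead gene of the hypothalamus, averaged 2.58 ± 0.76 in wild type and 3.14 ± 0.79 in Phc2 L307R (SD, 43 probes), and its run was 4508 bp and 8513 bp. Col3a1, which encodes a fibrillar collagen that fibroblasts secrete, had 1.36 ± 0.87 and 1.94 ± 0.71 (SD, 31 probes). Input was well above background at 71.0% of the Col3a1 probes in wild type and at 41.9% in Phc2 L307R; the part of this in the difference was not tested. D230002A01Rik, tiled within the region of Irx3, had 1.67 and 2.22, the neural crest gene Tcfap2b 1.88 and 2.41, the LIM homeobox gene Lhx9 1.92 and 2.40, and Mab21l1, an eye development gene, 1.07 and 1.54. In the value tables Foxb1 was lower by 0.64 and Col3a1 higher by 0.07. All 25 Nkx, LIM and sine oculis promoters that were broad in those tables were lower, Lhx9 among them.

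**Figure D4:**
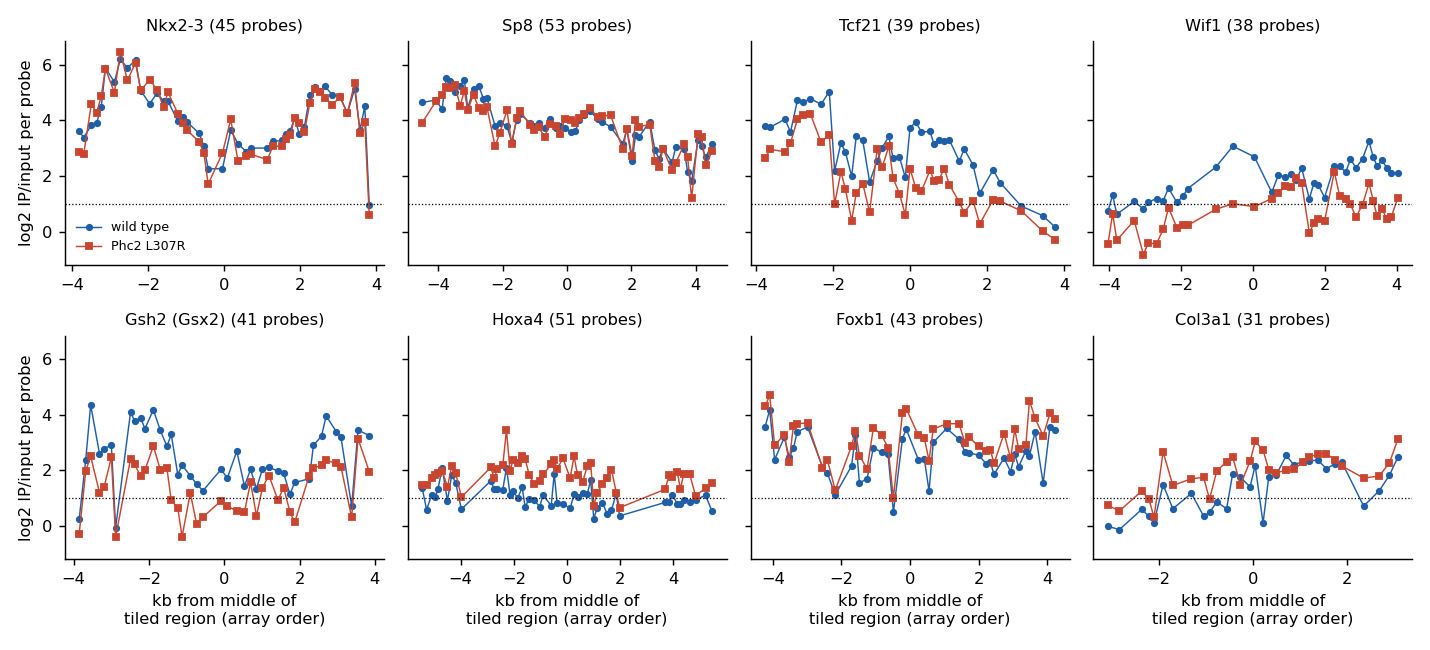
Log2 ratio of each probe (vertical) against its distance in kb from the middle of the tiled region (horizontal, in array order) at 8 broad promoters, wild type in blue and Phc2 L307R in red; the dotted line marks 1. The lines run together at Nkx2-3 and Sp8, the red line lies mostly below the blue at Tcf21, Wif1 and Gsh2, and mostly above it at Hoxa4, Foxb1 and Col3a1.

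Medians of the difference were also taken over all measured promoters of each list, broad or not, where all promoters had -0.05. The lists were drawn up with earlier results of these data known. Paired, Dlx, Msx, Irx and other homeobox genes stood at -0.31, with 87 of 97 below 0, and Nkx, LIM and sine oculis homeobox genes at -0.30, with 24 of 30 below 0. Fox, T-box, Sox and Gata genes stood at -0.12, bHLH and zinc finger genes at -0.12, Hox genes at -0.14 and signalling genes at -0.07. The medians of these 6 lists were below 0 in every processing of the values tried, as was the median of all promoters. After loess bHLH and zinc finger genes stood at -0.027 where all promoters had -0.031, and after normexp signalling genes stood at -0.054 where all had -0.053, so these lists were then level with all promoters. Of all broad promoters 100 of 763 were lower by 1.5-fold. Among the broad members of the lists these were 19 of 77 Paired, Dlx, Msx, Irx and other homeobox promoters, 8 of 25 Nkx, LIM and sine oculis promoters and 9 of 46 bHLH and zinc finger promoters. They were 5 of 40 Fox, T-box, Sox and Gata promoters, 5 of 34 Hox promoters and 3 of 20 signalling promoters.

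Fibroblast and matrix genes went the other way, as did olfactory receptor genes. The 851 olfactory receptor promoters, none of them broad, had a median of 0.23, with 69 below 0. That median stayed above 0 in every processing of the values tried. The median over the 39 fibroblast and matrix promoters was 0.07, with 10 below 0, and 9 were broad in wild type and 14 in Phc2 L307R. Col1a2 and Col1a1, the type I collagen genes, had wild-type means of 1.00 and 0.89, below the cut-off before rounding, and Phc2 L307R means of 1.15 and 1.02, and Fn1, fibronectin, had 0.95 and 1.15. These 3 crossed the cut-off by small steps, all well within the spread over their probes. With only probes well above background kept, the fibroblast and matrix median was -0.05 and the numbers broad were 4 and 8, and after normexp only 1 and 0 were broad. The value tables gave 12 and 14, with a list median near 0. Clustered histone genes had 7 broad promoters in wild type and 10 in Phc2 L307R. With only probes well above background kept these numbers were 2 and 1, and after normexp 1 and 0.

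Broad and narrow promoters were compared at windows of like height, since height and breadth go together. Among long-tiled promoters with a highest wild-type window of 2 to 2.5, the difference at that window had a median of -0.29 at 136 broad and -0.35 at 664 narrow promoters. From 2.5 to 3 it was -0.31 at 117 broad and -0.45 at 120 narrow ones, and from 3 to 4 it was -0.63 at 108 broad and -0.71 at 24 narrow ones. At 4 or more there were 126 broad promoters, with -0.67, and no narrow one. For heights of 2 to 3 broad minus narrow was 0.05. It was -0.12 in the value tables, -0.033 on design 2 alone and 0.19 on design 1, so no order of broad and narrow promoters held. A window picked as the highest in wild type favours a decrease in both groups.

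Position within the promoter could be oriented for members whose strand RefSeq gives. At the 179 such long-tiled members with a mean of 1 to 2, the upstream side of the tiled region had a mean of 0.87 in wild type and the downstream side 1.63, and the downstream side was higher at 83.2%. At the 79 with a mean of 2 or more the sides had 2.49 and 2.86, and the downstream side was higher at 63.3%. At 1717 narrow promoters they had -0.04 and 0.68. The upstream side of members thus lay above the array median, and that of narrow promoters near it. In Phc2 L307R the members at 2 or more had 2.02 upstream and 2.51 downstream, so both sides were lower.

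**Figure D5:**
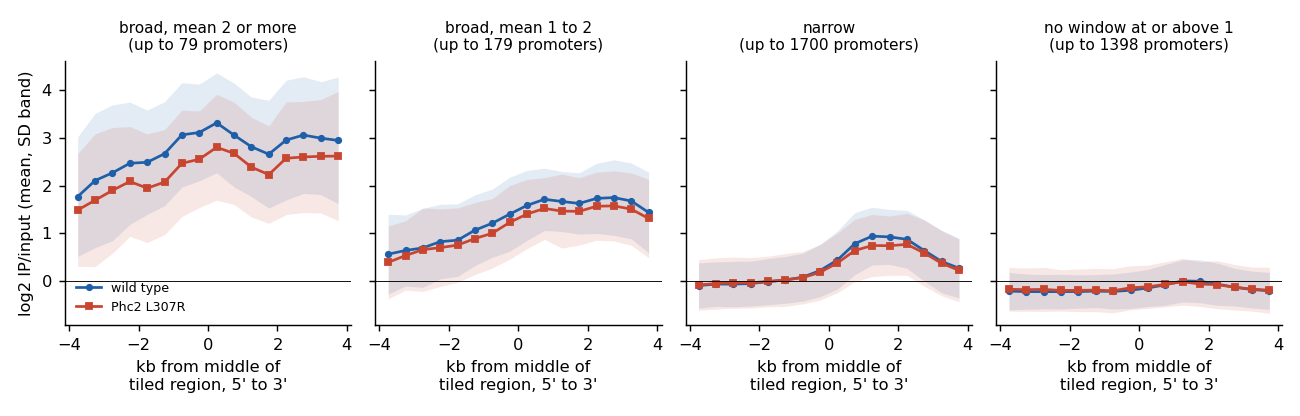
Mean log2 ratio in bins of 500 bp (points, with bands of 1 SD over promoters) against the distance in kb from the middle of the tiled region, 5′ to 3′, for 4 classes of long-tiled promoters, wild type in blue and Phc2 L307R in red. The broad class with means of 2 or more is raised over the whole region and lower in Phc2 L307R in each bin, whereas the narrow class is highest downstream of the middle.

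Members lay singly for the most part. Joining members within 10000 bp of each other gave 707 blocks, of which 33 held more than 1 member and 89 members in all. The largest were Hox clusters: 8 members of the HoxA cluster, 7 from Evx2 to Hoxd9 (chr2:74457946-74501023) and 6 from Hoxc13 to Hoxc8 (chr15:102743943-102821046), in the build of the files. Other blocks joined Zic5 with Zic2 and Pou4f1 with D130079A08Rik, and further ones held histone genes such as Hist3h2ba, Hist3h2bb and Hist3h2a. Neighbours in a block can share chromatin and are not independent. Among the autosomes the share of broad promoters ranged from 2.20% on chromosome 7 to 6.75% on chromosome 12.

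In the value tables the members had a median wild-type mean of 1.68, and 699 of the 763 (91.6%) were at or above 1. Against those wild-type values the median difference over the members was -0.53, with 241 lower by 2-fold and 0 higher. The sign was the same as with the scanner ratios at 615 members, 530 below 0 and 85 above. The Phc2 L307R values are shared by the comparisons, which are therefore not independent.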

How the data were processed

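Ring1B ChIP-on-chip arrays of wild-type and Phc2 L307R fibroblasts were analysed, with immunoprecipitate in Cy5 and input in Cy3 per the labels. Per the file headers, the authors quantified the scans with Agilent Feature Extraction 10.7.3.1, and the deposited log10 ratio of Cy5 over Cy3 was made after spatial detrending and dye normalization. Spot intensity values are deposited beside it and served for normexp and loess. The authors' deposited value tables are also on a log10 scale, found by comparison with the scanner ratios; their centring and the wild-type source stay unknown. Columns have medians of -0.056 and -0.0615 for wild type and -0.0342 and -0.0393 for Phc2 L307R. A positive value means more immunoprecipitate than input.

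The ratio was put on a log2 scale, and the median of non-control probes was subtracted per array. Spots with outlier flags on either genotype were left out, and saturated spots kept. Promoters are gene names of the files with 5 or more probes; of the 763 broad ones, 564 matched a current symbol, 93 an older synonym, 92 a pair of genes and 14 nothing. A run joins successive probes at or above 1 that lie within 1000 bp, and a window holds 3 probes within 2000 bp. Precision is limited by the number of arrays.

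The members and lists were chosen with earlier results of these data known. Named promoters are the 10 highest means, the 5 longest runs, the 5 lowest windows, the 10 largest decreases and increases, the 3 on either side of the cut-off, the 5 highest windows outside, and up to 2 broad members of each list with the highest means; others were added after their values were seen. Some promoters that the rule names are not reported here. Alternatives were normexp (offset 50), loess, equal spread of the genotypes, the value tables, probes well above background only, flagged spots kept, medians, other cut-offs, probe minimum and size rule, single designs, other choosing genotypes and no paired names; long-tiled promoters alone and blocks counted once were chosen after seeing the data. Python 3.11.15 (numpy 2.4.6, pandas 2.3.3, scipy 1.17.1, matplotlib 3.10.9) and R 4.3.3 with limma 3.58.1 were used, and the steps were tested on simulated data.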

Additional observations from a re-analysis of the deposited data

How the results depend on the processing

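The median difference over broad promoters stayed below 0 under every alternative tried. Nearly all of these chose the promoters on wild-type values, which favours this sign, so the shared sign is a description. The choice on Phc2 L307R was made with the scanner ratios only, and its value lay near the -0.047 of all promoters. Normexp gave 301 broad promoters, 66.1% of them also broad in Phc2 L307R, a median difference of -0.37 and 58.1% in developmental lists. Loess gave 76.9%, -0.12 and 3 promoters lower by 2-fold, and equal spread 63.6%, -0.29 and 23. The value tables gave 55.8%, -0.52, 256 lower and 25.9% developmental, and a broad minus narrow window difference of -0.12 where it was 0.05. The filter on dim probes gave 63.4%, -0.29, 15 lower and 38.7%, and medians over probes 15 lower. A cut-off of 1.5 gave 313 broad promoters, a median difference of -0.32, 86.5% of probes at or above 1 and 57.5% developmental, and a cut-off of 0.75 gave 1450, -0.14, 50% and 19.0%. Counting probes at 1.5 or more gave 43.8%. With 10 or more probes 36.6% were developmental. Designs 1 and 2 alone had 382 and 381 broad promoters and 4 lower each, with a window difference of 0.19 on design 1 and -0.033 on design 2. Choosing on Phc2 L307R gave -0.039 and 5 lower, and choosing on both genotypes 87.8%, -0.11 and a window difference of 0.18. The 1.5-fold rule gave 100 lower and 4 higher. Long-tiled promoters alone gave 76.4%, 5 lower and 42.7%. Of 464 values of 79 named promoters over 6 processings, 393 moved by less than the spread over probes without crossing the 2-fold rule, 13 no longer reached it, 30 newly reached it and 28 moved further. No paired analysis was possible because each promoter has 1 array per genotype and the numbers in the titles name array designs. Input was well above background at fewer probes on the Phc2 L307R arrays. Without replicate arrays, differences of the size of the median cannot be set against the variation between cultures.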

Other observations

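The 92 promoters that were broad in Phc2 L307R only had a median difference of 0.20, as their choice implies. The largest steps were at Ccl2, a chemokine gene that fibroblasts can induce, which averaged 0.64 in wild type and 1.32 in Phc2 L307R (36 probes), and at Wisp1 (now Ccn4), a secreted matricellular protein gene of the Wnt pathway, with 0.97 and 1.55 (34 probes). Znhit2 and Ppp1r14b followed, with 0.52 and 1.03 (10 probes) and 0.54 and 1.02 (9 probes). P4ha3 and Plod2, which encode enzymes that hydroxylate collagen, had 0.78 and 1.26 and 0.81 and 1.20. Gli1, the transcriptional readout of Hedgehog signalling, had 0.84 and 1.27, Rbpsuh (now Rbpj), the DNA-binding factor of Notch signalling, 0.87 and 1.26, and the guidance gene Sema3a 0.96 and 1.38. These genes were picked from among the larger steps after their values were seen. Others such as Pi15, Tmem100 and Map4k5, with larger steps than Plod2, were left out. The selection describes these arrays, and no theme is drawn from it.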
